A study of Homo sapiens with 16 samples.

Results

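The genes described here are 7 genes transcribed by RNA polymerase III that make short noncoding RNAs, namely the vault RNA genes VTRNA1-1, VTRNA1-2, VTRNA1-3 and VTRNA2-1, the 7SL RNA genes RN7SL1 and RN7SL2, and the BC200 RNA gene BCYRN1. They were chosen by name, 7 genes set against 64449 annotated genes on chromosomes 1 to 22, X and Y, and every peak of 3 ChIP-Seq peak lists with a base within 1 kb of one of them was taken. The lists come from HEK293T cells, a human embryonic kidney line immortalized with adenovirus DNA and carrying SV40 large T antigen, grown untreated. One list was called for WT cells (wild-type, 1468 peaks), one for POLK-/- cells, which lack the gene of the translesion DNA polymerase Pol κ (2451 peaks), and one for DDX23-/- cells, which lack the gene of a spliceosomal RNA helicase (5945 peaks). The sample labels name Polk as the antibody, while the protocol names an anti-FLAG gel, and no tagged construct is given for these cells, so the protein that was pulled down is uncertain, and in POLK-/- cells Pol κ itself should be missing. The lists hold no measurement of the product of either deleted gene, and the labels do not say whether a line is 1 clone.

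There is 1 list for each genotype and no replicate list, so differences between genotypes could not be tested, and the intervals below are exact Poisson intervals (95%) for counting error alone. In the wild-type and DDX23-/- lists the number carried by the peak names is not that of the sample, so the library of its genotype from which each was called is uncertain. Values are given throughout in the order wild-type, POLK-/-, DDX23-/-. A median peak had a deposited fold of 7.68, 7.20 and 7.42, and rested on 14, 27 and 34 fragments at its summit, the base with the highest pileup. The weakest peak of each list rested on 6, 10 and 14 fragments.

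RNA polymerase III reads promoters of several kinds. Vault RNA genes, like tRNA genes, carry an A box and a B box inside the transcribed part, which the factor TFIIIC binds, and TFIIIC then brings TFIIIB and the polymerase to the start. Vault RNAs of the VTRNA1 genes are components of the large vault ribonucleoprotein particle and have been linked to autophagy. 7SL RNA is the scaffold of the signal recognition particle that directs nascent secretory proteins to the endoplasmic reticulum. BC200 RNA is a primate transcript of Alu origin, known from neurons, that acts on translation. The 7SL genes also depend on sequence upstream of their start.

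The genes lie on 3 chromosomes in GRCh37. VTRNA1-1 (ENSG00000199990, chr5:140090860-140090958), VTRNA1-2 (ENSG00000202111, chr5:140098510-140098598) and VTRNA1-3 (ENSG00000202515, chr5:140105743-140105831) lie in a row on the plus strand, 7551 and 7144 bp apart, and all 3 lie within the long noncoding RNA gene ENSG00000292256, VTRNA1-1 in an exon of it and the other two in introns. VTRNA2-1 (ENSG00000270123, chr5:135416159-135416286, minus strand) lies in no other annotated gene. RN7SL2 (ENSG00000265150, chr14:50329271-50329567, minus strand) lies inside exons of the long noncoding RNA gene ENSG00000282885, and BCYRN1 (ENSG00000236824, chr2:47562454-47562653, plus strand) lies antisense in an intron of EPCAM-DT. RN7SL1 was not found by name in the GENCODE 44 annotation used, and was placed at chr14:50053298-50053594 (plus strand, antisense in an intron of RPS29) because only 3 loci match RN7SL2 at 95% identity over at least 80% of its length, the other two being annotated as RN7SL2 and RN7SL3. The peaks cannot tell transcription units that overlap at these places apart.

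Peaks were found at 6 of the 7 genes, VTRNA1-1, VTRNA1-2, VTRNA1-3, RN7SL1, RN7SL2 and BCYRN1, in all 3 lists, with exactly 1 peak for each gene in each list, 18 peaks in all. The fourth vault gene, VTRNA2-1, had no peak within 1 kb in any list. Its nearest peak was 2384673, 245526 and 52164 bp away. Among all annotated genes, the share with a peak within 1 kb was 3.21%, 5.45% and 13.0%. Among the 11569 annotated genes of up to 300 bp, which resemble the 7 genes in length, it was 0.717%, 0.942% and 1.64%. A list holds only what passed the threshold of the peak caller, so a smaller enrichment at VTRNA2-1 was not detectable here.

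VTRNA2-1, which had no peak, shared at most 55.1% of aligned positions with the other vault genes, which shared 81.8% to 87.8% with one another.

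At every one of the 6 genes with a peak the deposited fold was above the upper quartile of its list (11.5, 10.8 and 10.7). The deposited fold is the pileup at the summit over the local background of the control, with 1 added to both terms. Among the vault genes, VTRNA1-2 had a deposited fold of 63.2, 31.0 and 83.9, VTRNA1-3 one of 39.8, 33.0 and 48.9, and VTRNA1-1 one of 13.5, 73.4 and 70.1. VTRNA1-1 was thus lowest of the 3 genes in the wild-type list and highest in the POLK-/- list. The −log10 p was 59.2, 247 and 331 at VTRNA1-1, 279, 281 and 416 at VTRNA1-2 and 127, 162 and 272 at VTRNA1-3. Ranked by p within its list, VTRNA1-2 was number 14, 79 and 11, VTRNA1-1 number 195, 103 and 76, and VTRNA1-3 number 106, 154 and 123. No other peak lay between the 3 genes, as the nearest other peak of each was that of its neighbor, 6687 to 7312 bp away.

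At the 7SL genes the deposited fold was 34.1, 79.6 and 46.8 for RN7SL1 and 46.8, 37.0 and 83.6 for RN7SL2. The −log10 p was 95.9, 283 and 257 at RN7SL1 and 159, 231 and 381 at RN7SL2, and the ranks by p were 135, 77 and 133 for RN7SL1 and 79, 112 and 32 for RN7SL2. The gene with the higher fold was RN7SL2 in the wild-type and DDX23-/- lists and RN7SL1 in the POLK-/- list. The 2 genes are 98.7% identical, so reads from inside them may be split or lost between copies. BCYRN1 was placed last of the 6 genes by p in the wild-type and DDX23-/- lists, with a deposited fold of 19.7, 51.4 and 36.8, a −log10 p of 44.8, 170 and 201 and ranks of 233, 147 and 178.

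Over the 6 genes with a peak, the median deposited fold was 37.0, 44.2 and 59.5. The highest-placed peak by p stood at rank 14, 77 and 11, and the lowest-placed at rank 233, 154 and 178. The lowest-placed peak thus lay in the first 15.9%, 6.28% and 2.99% of its list. The peaks were wide, with a median of 514.5, 698 and 804.5 bp against 328, 349 and 347 bp over each whole list. The peak was narrowest in the wild-type list at all 6 genes and widest in the DDX23-/- list at 5 of them, the exception being RN7SL2 (716, 981 and 933 bp). VTRNA1-2 had the widest peaks of the vault genes, of 630, 822 and 937 bp, against 526, 644 and 785 bp at VTRNA1-1 and 503, 598 and 726 bp at VTRNA1-3. The peaks of RN7SL1 were 471, 752 and 824 bp wide and those of BCYRN1 491, 586 and 773 bp. The number of fragments at the summits rose in the same order of lists, with a median of 78.5, 202.5 and 304, and its part in the widths was not tested.

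**Figure D1:**
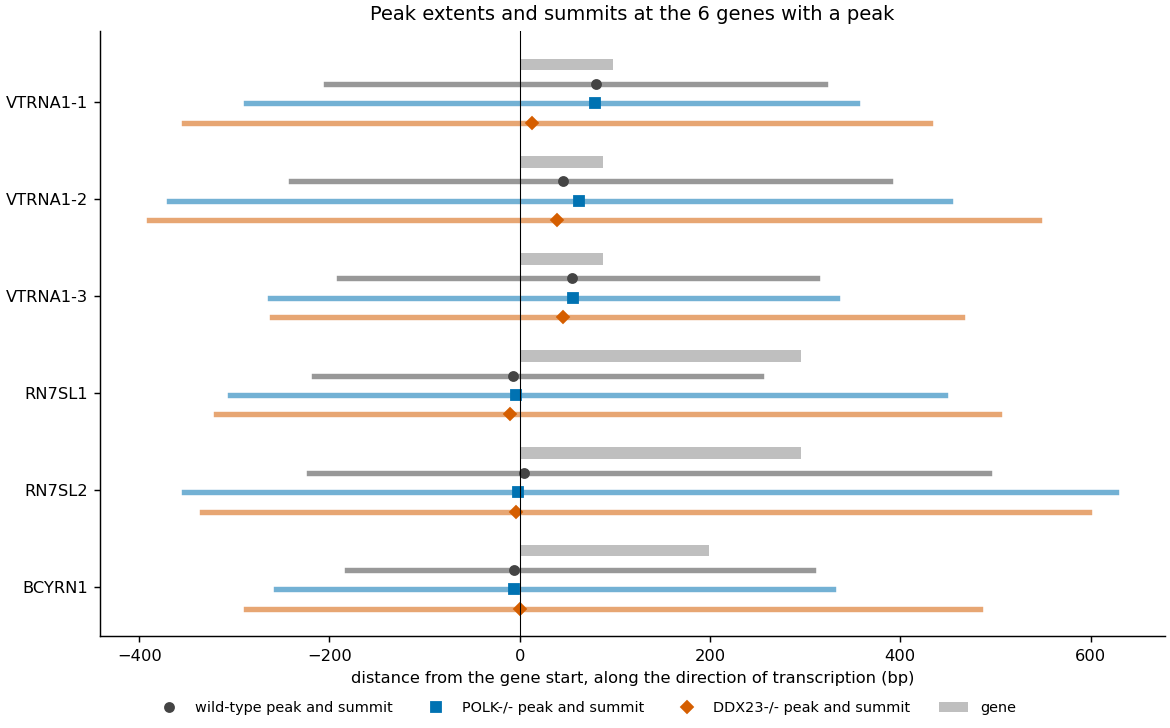
Peak extents (lines) and summits (symbols) along the direction of transcription, in bp from the gene start, for the 6 genes with a peak, 1 line for each list (wild-type, POLK-/-, DDX23-/-). Gray bars are the genes. Summits of the vault genes lie 13 to 80 bp past the start, and those of RN7SL1, RN7SL2 and BCYRN1 lie from 10 bp before to 4 bp past it.

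The position of the summit was compared with the start of each gene. At the vault genes all 9 summits lay inside the transcribed part, 45, 62 and 39 bp past the start of VTRNA1-2, 55, 56 and 46 bp past that of VTRNA1-3, and 80, 79 and 13 bp past that of VTRNA1-1. The spread over the lists was 67 bp at VTRNA1-1, 23 bp at VTRNA1-2 and 10 bp at VTRNA1-3. At the 7SL and BC200 genes the 9 summits lay between 10 bp before the start and 4 bp past it, with a spread over the lists of 6 bp at RN7SL1, 8 bp at RN7SL2 and 6 bp at BCYRN1. The vault and the other summits did not overlap in their distance from the start, although the genes were few and the fragments, taken as long as the shortest peak (228, 211 and 196 bp), far longer than these distances. Reads from inside the 7SL and BC200 genes may also be split or lost between near-identical copies. The part of this in the summit positions was not tested. Summits inside the gene were not particular to the vault genes. Those of the U6 spliceosomal RNA genes, whose promoters lie outside the transcribed part, stood 3 to 78 bp past the start. Among the Y RNA genes, those of RNY3 stood 17, 30 and 13 bp past it and those of RNY1 25, 60 and 29 bp. Those of RNY5 (10, −292 and 35 bp) and RNY4 (87, 159 and 77 bp) lay outside the gene in the POLK-/- list. Those of the RNase MRP RNA gene RMRP stood at 68, 62 and −10 bp. The summits of the 7SK RNA gene RN7SK, also with a promoter outside, stood at −12, −6 and −10 bp, close to the start like those of the 7SL genes. All 18 peaks reached further past the start (254 to 627 bp) than before it (182 to 390 bp), as the plot of peak extents shows.

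**Figure D2:**
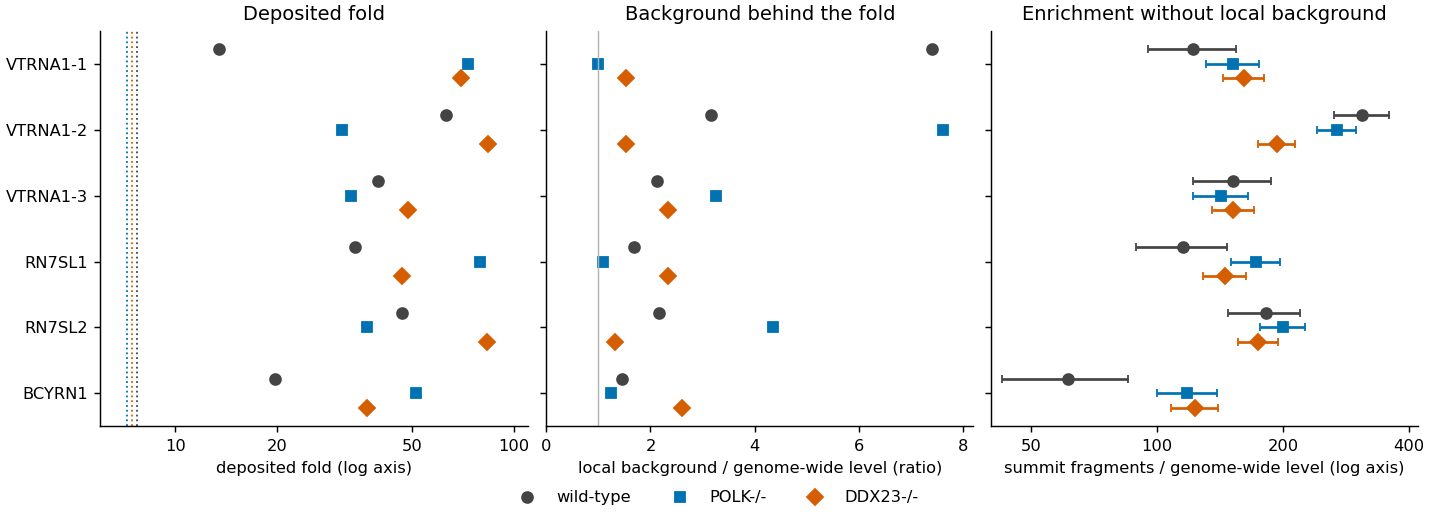
Deposited fold (left, log axis, dotted lines at the median of each list), local background as a ratio to the genome-wide level (middle) and summit fragments as a ratio to the genome-wide level (right, log axis, bars are exact Poisson 95% intervals) at the 6 genes with a peak. The fold of VTRNA1-1 was 13.5 in the wild-type list and 73.4 in the POLK-/- list, its background was 7.41 and 1.0 times the genome-wide level, and its summit fragments were 122 and 152 times that level.

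The fragment numbers behind these folds could be recovered from the deposited values. At the summit of VTRNA1-2 there were 177, 336 and 375 fragments, at VTRNA1-1 70, 190 and 313, and at VTRNA1-3 87, 178 and 295. RN7SL2 had 104, 250 and 339 fragments, RN7SL1 66, 215 and 282, and BCYRN1 35, 148 and 240. The pulldown libraries differed in depth, with a genome-wide level of 0.573, 1.25 and 1.94 fragments. The recovered fragments are therefore also given as an enrichment, the number at the summit over this genome-wide level, which leaves out the local control.

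On the enrichment scale VTRNA1-2 came first in every list, at 309 (265 to 358), 269 (241 to 299) and 193 (174 to 214), and RN7SL2 second, at 182 (148 to 220), 200 (176 to 226) and 174 (156 to 194). The intervals of these neighbors did not overlap in the wild-type and POLK-/- lists and overlapped in the DDX23-/- list. The interval of RN7SL2 overlapped that of the gene next below it in every list. BCYRN1 came last in every list, at 61.1 (42.5 to 85.0), 118 (100 to 139) and 123 (108 to 140). Its interval lay below that of the next gene in the wild-type list and overlapped it in the other two. Between them stood VTRNA1-1 with 122, 152 and 161, VTRNA1-3 with 152, 142 and 152, and RN7SL1 with 115, 172 and 145, whose intervals overlapped in each list. The highest of the 6 enrichments was 5.06, 2.27 and 1.56 times the lowest. The most fragments found at any summit were 456, 402 and 390, at or under 2 fragments for each base of the shortest peak (456, 422 and 392). VTRNA1-2 reached 38.8%, 79.6% and 95.7% of this ceiling and RN7SL2 22.8%, 59.2% and 86.5%, and the part of the ceiling in the narrower range was not tested. The Poisson intervals take no account of the ceiling. At VTRNA1-2 in the DDX23-/- list the interval of the 375 fragments, 338 to 415, passed the ceiling of 392.

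The local background differed between lists at the same gene. At VTRNA1-1 the wild-type fold was set by 7 control fragments at the summit, 7.41 times the genome-wide level, while the POLK-/- fold was set by the genome-wide level itself and the DDX23-/- fold by a window of 1 kb, at 1.53 times that level. VTRNA1-2 showed a different order, with 3 control fragments at the summit in the wild-type list (3.17 times), 7 in the POLK-/- list (7.61 times) and the 1 kb window in the DDX23-/- list (1.53 times). At RN7SL2 the POLK-/- background rested on 4 control fragments, 4.35 times the genome-wide level, against 2.17 and 1.31 times in the other two lists. The background over the genome-wide level ran less far apart at VTRNA1-3 (2.12, 3.26 and 2.34 times), RN7SL1 (1.69, 1.09 and 2.34 times) and BCYRN1 (1.45, 1.24 and 2.60 times). Of the 18 peaks, 9 took their background from control fragments at the summit, between 1 and 7 of them. No interval for counting error is given for these backgrounds. At none of the 6 genes did the highest fold and the highest background over the genome-wide level fall in the same list. The background is the lower term of the fold, so such an order is partly built into the measure. The same count was not made over the shared peaks.

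The question whether the genes differed between genotypes was put to the ratio of the lists, with a limit of 1.5 times in either direction, and read against all peaks shared by the same lists. For POLK-/- over wild-type, the deposited fold was higher past the limit at 3 of the 6 genes, VTRNA1-1 (5.42 times), BCYRN1 (2.61) and RN7SL1 (2.34), and lower at 1, VTRNA1-2 (0.492). Among the 1113 shared peaks, 31.4% were higher and 7.01% lower past the limit, with a median ratio of 1.21. VTRNA1-3 (0.830) and RN7SL2 (0.791) stayed within it. On the enrichment scale, 1 gene was higher past the limit, BCYRN1, at 1.94 times (1.33 to 2.89), and none was lower, against 18.8% and 5.30% of the shared peaks and a median of 1.11. RN7SL1 stood at 1.49 times (1.13 to 2.00), VTRNA1-1 at 1.24 times (0.942 to 1.66) and VTRNA1-2 at 0.870 times (0.723 to 1.05). At VTRNA1-1 and VTRNA1-2 the 2 lists thus had values further apart for the local background than for the summit fragments, both over the genome-wide level. These backgrounds rested on few control fragments, 7 at VTRNA1-1 in the wild-type list and 3 and 7 at VTRNA1-2. Their counting error is not given, so the difference in background is uncertain.

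For DDX23-/- over wild-type, the ratio of deposited folds was above 1 at all 6 genes. It was higher past the limit at 3, VTRNA1-1 (5.18 times), BCYRN1 (1.87) and RN7SL2 (1.79), and lower at none. Among the 1341 shared peaks, 60.2% were higher and 1.72% lower. The median ratio was 1.58 over the 6 genes and 1.68 over the shared peaks. RN7SL1 (1.37), VTRNA1-2 (1.33) and VTRNA1-3 (1.23) stayed within the limit. The direction depended in part on the 1 added to both terms of the fold. Without it, fragments over background fell from wild-type to DDX23-/- at VTRNA1-3 (71.8 to 64.9) and RN7SL1 (68.2 to 62.0). This plain ratio rose at the other genes, at BCYRN1 from 42.2 to 47.5. On the enrichment scale BCYRN1 was higher, at 2.02 times (1.41 to 2.97), and VTRNA1-2 lower, at 0.625 times (0.521 to 0.751), against 29.0% higher and 5.59% lower among the shared peaks. The VTRNA1-2 summit stood at 95.7% of the ceiling on fragments in the DDX23-/- list, which the interval of its ratio leaves out of account. RN7SL2, with a fold ratio of 1.79, had an enrichment ratio of 0.961 (0.769 to 1.21).

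For DDX23-/- over POLK-/-, the deposited fold was higher past the limit at VTRNA1-2 (2.70 times) and RN7SL2 (2.26) and lower at RN7SL1 (0.587), against 46.1% higher and 3.99% lower among 2256 shared peaks. VTRNA1-3 (1.48), VTRNA1-1 (0.955) and BCYRN1 (0.716) stayed within it. On the enrichment scale no gene passed the limit in either direction, against 20.8% and 5.45% of the shared peaks, and both genes that were higher by fold were below 1, VTRNA1-2 at 0.718 (0.618 to 0.834) and RN7SL2 at 0.872 (0.738 to 1.03). These intervals also leave the ceiling on fragments out of account. The enrichment ratios of the 6 genes ran from 0.718 to 1.07. These comparisons share lists with one another and are not independent. With 1 list for each genotype, a ratio past the limit compares these lists and not the genotypes.

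**Figure D3:**
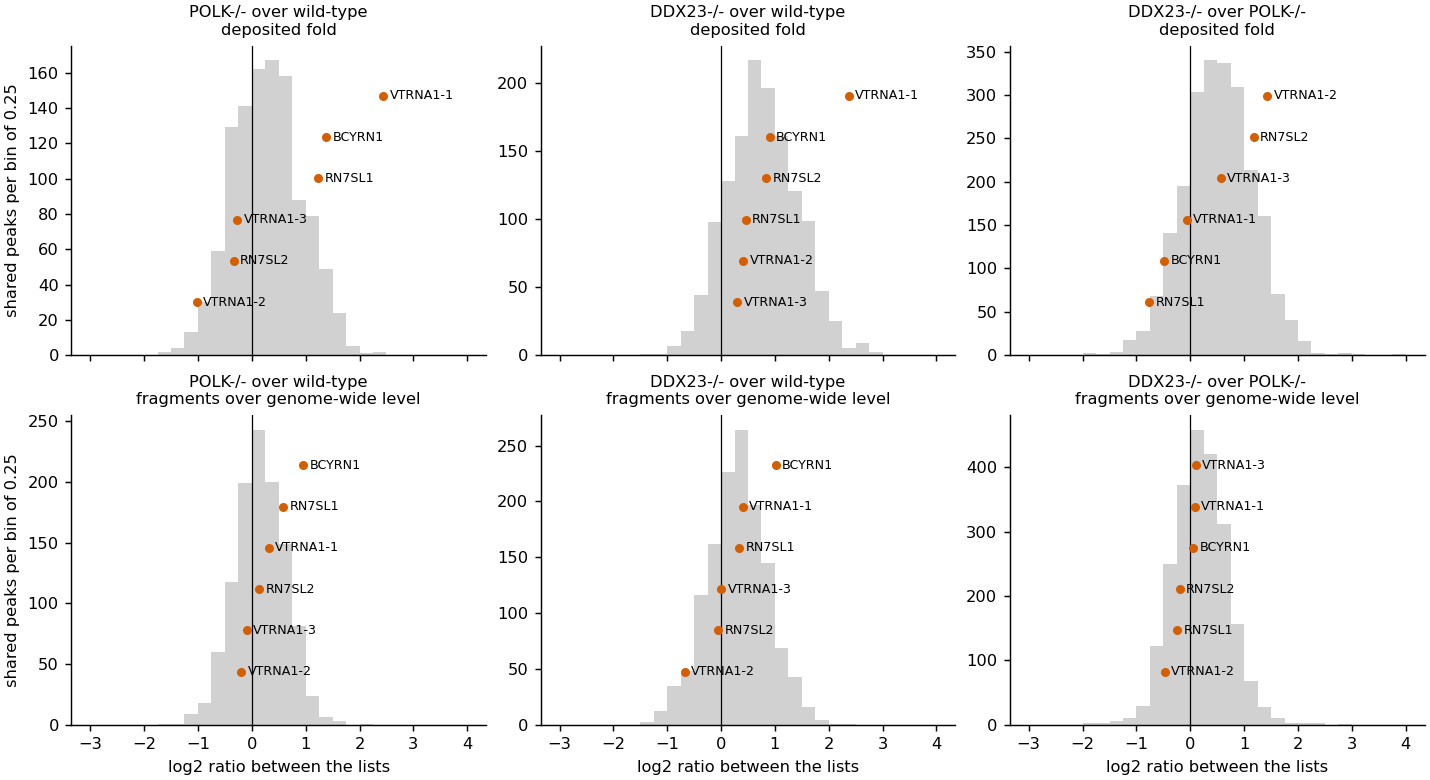
Log2 ratio between lists at the 6 genes with a peak (points, their height is arbitrary) over the histogram of all shared peaks (gray, peaks in each bin of 0.25), for the deposited fold (top) and for summit fragments over the genome-wide level (bottom). By deposited fold the 6 genes spread from 0.492 to 5.42 times for POLK-/- over wild-type, and by fragments from 0.870 to 1.94 times, while the shared peaks also spread less by fragments. BCYRN1 stood at percentile 95.1 of the shared peaks by fold and 95.9 by fragments.

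Close relatives of the 7SL genes had far fewer peaks. Among 847 annotated genes and pseudogenes named RN7SL other than the 2 described, 2, 4 and 7 had a peak within 1 kb (0.236%, 0.472% and 0.826%), and in 0, 1 and 1 case did the peak overlap the gene. That case was RN7SL3, which is 97.6% identical to RN7SL1. RN7SL3 had no peak in the wild-type list, and in the other two lists a fold of 6.0 and 6.85, with 24 and 40 fragments at a summit 20 and 21 bp before its start. RN7SL1 had 215 and 282 fragments in the same lists. At the pseudogene RN7SL521P, the relative with the smallest p in every list, the fold was 6.74, 10.9 and 19.8, with the summit at −245, −247 and −334 bp from the gene start. The pseudogene VTRNA3-1P, the only other vault-named gene, had no peak within 1 kb in any list. Of 8 further genomic copies of BCYRN1 with at least 95% identity over at least 80% of its length, none was overlapped by a peak in any list, and 1 had a peak within 1 kb. Reads from repeated or near-identical copies may be split or lost between them. The part of this in the missing or weaker peaks of relatives and copies was not tested.

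**Figure D4:**
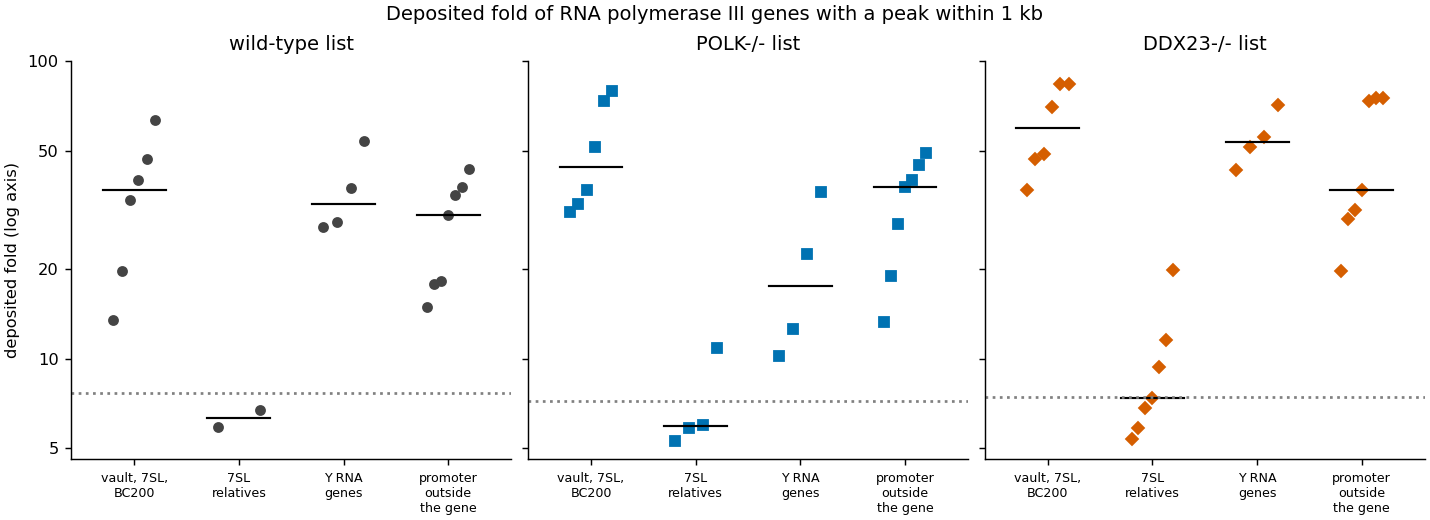
Deposited fold (log axis) of genes with a peak within 1 kb, with 1 panel for each list. Points are genes, black bars group medians and the dotted line the median of the list. The 6 vault, 7SL and BC200 genes have medians of 37.0, 44.2 and 59.5, the Y RNA genes 33.2, 17.5 and 53.6, and the U6, 7SK and RMRP genes (labeled promoter outside the gene) 30.5, 37.9 and 36.9. The groups were made by gene name and do not set the Y RNA genes apart by promoter type.

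Other RNA polymerase III genes had peaks as well. The Y RNA genes RNY1, RNY3, RNY4 and RNY5, whose RNAs bind the Ro60 protein, all had a peak in every list, with a median deposited fold of 33.2, 17.5 and 53.6. Another group was the U6 spliceosomal RNA genes RNU6-1, RNU6-2, RNU6-7, RNU6-8 and RNU6-9, the 7SK RNA gene RN7SK and the RNase MRP RNA gene RMRP. These 7 genes, with promoters outside the transcribed part, also had a peak in every list, with a median of 30.5, 37.9 and 36.9. The groups were made by gene name and do not set the Y RNA genes apart by promoter type. The ranges of the groups overlapped in each list. The Y RNA genes ran from 27.8 to 54.1, from 10.2 to 36.3 and from 43.1 to 71.4, while the 6 genes described ran from 13.5 to 63.2, from 31.0 to 79.6 and from 36.8 to 83.9. RPPH1, the gene of RNase P RNA, was not analysed here.

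Besides the 7, 2 annotated genes had a start within 1 kb of one of these summits. The start of ENSG00000292256 lay 140, 139 and 73 bp from the summits at VTRNA1-1, and that of the long noncoding RNA gene ENSG00000278002 lay 227, 221 and 219 bp from those at RN7SL2. The genes outside these groups whose folds in the 3 lists were nearest the median of the 6, by Euclidean distance in log2 fold among 1271 genes with a peak within 1 kb of their start in all 3 lists, were BCAR3 and the divergent long noncoding RNA gene ENSG00000260464, which share their peaks (33.0, 38.8 and 54.5, distance 0.254), and LASP1 (31.7, 39.8 and 59.5, distance 0.255). This likeness rests on 3 values.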

How the data were processed

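Peak lists of ChIP-Seq in HEK293T cells were analysed, 1 for each of 3 genotypes, of 16 samples in the series. The processing notes of the submitters name Bowtie2, MACS2, bedtools, deepTools and the build hg19, without roles, and versions and thresholds are not given in the sources used here. For each peak the authors deposited a fold ratio, the −log10 of its p-value and q-value, a score made from the q, and the summit position. The members and lists were chosen with earlier results of these data known.

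The formulas of MACS2 (fold with 1 added to both terms, Poisson p) were solved for whole fragments, which were recovered for 1468 of 1468, 2451 of 2451 and 5945 of 5945 peaks (tolerance 0.02 fragments). The backgrounds of 100% of the peaks were the genome-wide level (the lowest value shared by at least 2% of peaks) or whole numbers of control fragments at the summit, in 1 kb or in 10 kb, so the values show that a control library was used. One fragment is worth 1.00, 0.736 and 0.660 in the scaled pileups. Absolute read totals are unknown. The solver was tested on simulated data. Sequences and promoter letters of the genes are not reported here.

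The peak whose summit lay nearest the gene start was used. Distances count the start base as 0. Genes were taken from GENCODE 44 placed on GRCh37, and copies were sought with blastn 2.17.0. An overlap of 1 bp made peaks of 2 lists shared. The genes named are the 7 members, their relatives with the smallest p, 11 other RNA polymerase III genes, genes that start within 1 kb of a member summit and the 3 genes most alike in fold. No test was run between genotypes.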

Additional observations from a re-analysis of the deposited data

How the results depend on the processing

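Presence was the same under the settings tried, several of which could not have changed it. The count of 6 of 7 genes with a peak was the same in all 21 alternatives, which were a distance of 200 bp or 5 kb, overlap with the gene, the summit within 1 kb, a q of 1e-05 or 1e-10 or less, and an equal number of peaks from every list (1468, by p). The q limits could remove no peak of these genes, whose lowest −log10 q was 40.2, at BCYRN1 in the wild-type list. The distance of 5 kb could not add VTRNA2-1, whose nearest peak in any list was 52164 bp away. The equal number was the whole wild-type list. The median deposited fold was the same with the peak of smallest p or a q of 1e-05 or less, and could not have differed. Each gene had exactly 1 peak in each list, and all these peaks passed that q. The plain ratio of fragments to background, without the added 1, gave 70.0, 70.8 and 85.1. The counts past the limit between lists were not repeated with this plain ratio. Counts past the limit of 1.5 times depended on the measure. Divided by the median over shared peaks, 2 genes in place of 1 were lower for POLK-/- over wild-type, 1 in place of 3 was higher for DDX23-/- over wild-type and 3 in place of 1 were lower for DDX23-/- over POLK-/-. With a limit of 2 times, 1 gene was higher for DDX23-/- over wild-type and 0 were lower for DDX23-/- over POLK-/-. By fragments over the genome-wide level, a measure chosen after seeing the data, 1 was higher and 0 lower for POLK-/- over wild-type, 1 higher and 1 lower for DDX23-/- over wild-type, and 0 higher and 0 lower for DDX23-/- over POLK-/-. Values turned below 1 at RN7SL2 for DDX23-/- over wild-type (0.961) and, for DDX23-/- over POLK-/-, at VTRNA1-2 (0.718) and RN7SL2 (0.872). This measure leaves out the local background, and the part of the ceiling on fragments in these values was not tested. No paired analysis was possible because each genotype has 1 list. Depth limits the wild-type list most, where BCYRN1 rests on 35 fragments.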
